A study of Mus musculus with 4 samples.

Results

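The members described here are the genes that set pyrophosphate and inorganic phosphate levels around cells: Ank, Enpp1, Alpl, Slc20a1, Slc20a2, Xpr1 and Abcc6. They were taken by gene symbol from the platform annotation, which gave 15 of 45037 probe sets, for 6 of the 7 genes (18193 genes were measured in all). These were 1 each for Ank, Alpl and Abcc6, 2 for Slc20a2, 3 for Slc20a1 and 7 for Xpr1. Enpp1 was named by no probe set in that annotation and was not analysed here. Ank was chosen by its signals in the comparison described below, which were known to be lower in both AID-silenced clones, and the other genes were chosen for their roles beside it. The values of Ank in that comparison are therefore a description without a test.

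RNA came from J558, a plasmacytoma line of BALB/c (H-2Ld) origin, that is, a tumour line of antibody-secreting plasma cells. There were 2 groups of clones, all co-transfected with a Neo vector and selected with G418. Control clones had received the empty silencing vector, and AID-silenced clones had received pSilencer 1.0 with a sequence against activation-induced cytidine deaminase (AID), the enzyme that mutates immunoglobulin genes. Each group held 2 clones with 1 Affymetrix mouse expression array each, arranged by the labels as pair 1 and pair 2. Because each sample is a single selected clone, differences between clones that have nothing to do with the vector enter every value, and p-values measure only the spread between these 4 clones. In bulk RNA, fewer cells that express a gene and less RNA per cell cannot be told apart.

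Signals were MAS5 intensities scaled to a trimmed mean of 500 on every array, with medians between 52.7 and 54.9. Bacterial control probe sets gave signals of at most 27.2 to 41.9, depending on the array. All 10 plasma cell markers looked at were tested, with a summed signal between 138225 and 183759 per clone. The summed signals of the markers of other cells ran from 186.1 to 457.6 for mature B cells (4 of 5 measured), from 74.8 to 139 for T cells (4 of 5), from 312.3 to 462.2 for macrophages (5 of 5) and from 156.3 to 265 for fibroblasts and osteoblasts (4 of 5). The T cell sum was 139 and 136 in controls and 74.8 and 113.1 in silenced clones, so it was lower in the latter, as was Ank. The macrophage sum was 312.3 and 349.2 in controls and 369 and 462.2 in silenced clones. Of the T cell genes, Cd8a was tested, with 72.4 and 85.2 in controls and 33.6 and 84.4 in silenced clones. Cd3e had 58.7 and 42.6 against 23.7 and 14.9. Cd3d and Cd4 stayed at or below 12.1 on every array, with Cd3d higher in the silenced clones. Of the macrophage genes, Csf1r was tested, with 212.6 and 268.3 against 231.6 and 292.9. Adgre1 had 46.6 and 20.3 against 58.2 and 91.6. Cd14 stayed at or below 28.2, Lyz2 at or below 49.6 and Itgam at or below 25.9. Whether RNA of these cells had a part in the results was not tested.

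Pyrophosphate is a brake on mineral deposition and a waste product of nucleotide metabolism. ENPP1 makes it outside the cell from ATP, ANK and ABCC6 promote the release of ATP and pyrophosphate from the cell, and the alkaline phosphatase ALPL splits pyrophosphate into phosphate. The sodium-coupled carriers SLC20A1 and SLC20A2 bring phosphate in, and XPR1, which carries a domain that senses inositol pyrophosphates, lets it out. These proteins are best known from bone, cartilage and vessel wall, and the carriers and XPR1 are found in most cell types.

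Ank was the member with the large difference. Its signals were 1709.8 and 3105 in controls and 218.7 and 238.7 in silenced clones, here and below with pair 1 before pair 2. Both AID-silenced clones lay far below both control clones, and the control clones differed from each other much more than the AID-silenced clones did. The means were 2408 ± 987 in the controls and 229 ± 14.1 in silenced clones (SD, n = 2). Differences are given as log2(signal + 16), a scale on which the added constant damps the scatter of dim probe sets and understates their differences. On that scale Ank was lower by −2.88 in pair 1, or 7.35-fold, and by −3.62 in pair 2, or 12.3-fold. Among the 22519 probe sets bright enough to be tested, it ranked 11 from the lowest by the mean of these differences. All 4 signals lay above the highest bacterial control of their array, so the remaining signal in the AID-silenced clones was measurable. Only this 1 probe set stood for Ank, so no second one was at hand to check it.

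**Figure D1:**
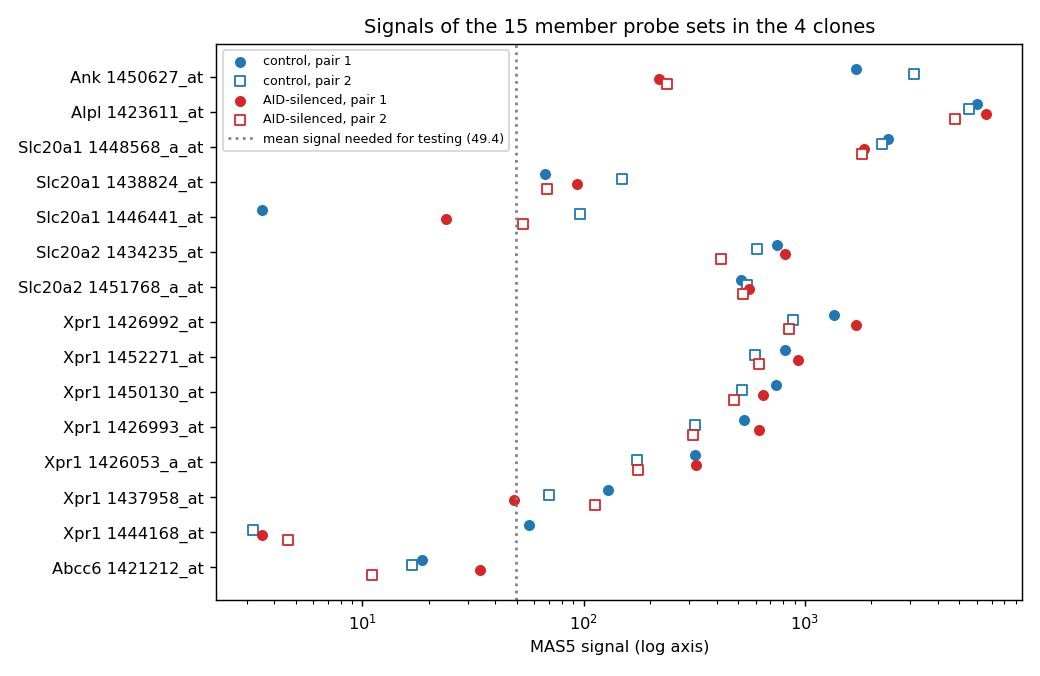
MAS5 signals on a log axis for the 15 member probe sets, 1 row each, with 1 point per clone (filled circles pair 1, open squares pair 2, blue control, red AID-silenced) and a dotted line at the mean signal of 49.4 needed for testing. The AID-silenced points of Ank lie at 218.7 and 238.7 and the control points at 1709.8 and 3105, while the other rows show overlapping or close groups.

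Pyrophosphate hydrolysis was represented by Alpl, tissue-nonspecific alkaline phosphatase. Its signals were 6039 and 5506.5 in controls and 6591.5 and 4797 in silenced clones. The groups overlapped, and the AID-silenced clone was above its control in pair 1 and below it in pair 2. The log2 difference was −0.04 ± 0.23 (SE, n = 2 per group, limma adjusted p = 0.9996). Alpl was thus well measured in all 4 clones and did not pass the test.

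Slc20a1, a carrier for phosphate uptake that also serves as a retrovirus receptor, had 3 probe sets. The brightest had signals of 2385 and 2229 in controls and 1861 and 1820.2 in silenced clones. Both AID-silenced clones lay below both controls, by −0.36 in pair 1 and −0.29 in pair 2. The fitted log2 difference was −0.32 ± 0.21 (SE, n = 2 per group, limma adjusted p = 0.9996). The second probe set had 67.2 and 149.2 against 93.4 and 68.6, with the pairs in opposite directions. Its fitted log2 difference was −0.29 ± 0.44 (SE, n = 2 per group, limma adjusted p = 0.9996). The third had 3.5 and 96.1 against 24 and 53, fell short of the signal needed for testing, and was above the bacterial controls in 2 of 4 clones. At neither of the dimmer probe sets was the AID-silenced clone lower in both pairs. Their scatter was too wide to tell whether the small difference at the brightest was repeated.

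Slc20a2, the second carrier of this family, had 2 tested probe sets that behaved differently. The first had signals of 746.2 and 607.7 in controls and 815.4 and 417.6 in silenced clones. The second was nearly level, with 516.7 and 551 against 557.6 and 525.4. Neither separated the groups, with log2 differences of −0.20 ± 0.37 and 0.02 ± 0.26 (SE, n = 2 per group, limma adjusted p = 0.9996 for both).

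Phosphate export was represented by 7 probe sets of Xpr1, of which 6 were tested. At the brightest the signals were 1350.2 and 888.2 in controls and 1708 and 850.3 in silenced clones. At the next they were 815.6 and 596.2 against 933.3 and 622.8. At the third they were 740.1 and 522.2 against 646.4 and 477.8, at the fourth 532.8 and 320.2 against 624.7 and 312.3, and at the fifth 320.3 and 174.2 against 322.6 and 176.6. In each of these the clones sorted by pair and not by vector, and within a pair the AID-silenced clone stayed close to its control. Over the 5 brightest probe sets the log2 difference between AID-silenced and control clones ran from −0.16 to 0.14. The sixth, with 128.6 and 70.1 against 48.4 and 112.5, differed by −1.17 in pair 1 and 0.58 in pair 2. The seventh was not tested and had 56.6 in the control clone of pair 1 and at most 4.6 in the other three.

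Abcc6, a transporter of the liver and kidney whose loss causes ectopic calcification, was hardly detected in these cells. Its signals were 18.6 and 16.8 in controls and 34.1 and 11.1 in silenced clones. Only 1 of the 4 lay above the bacterial controls of its array, so no difference could be read from it.

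Across the members, 12 of 15 probe sets, from 5 genes, were tested. Their mean log2(signal + 16) lay above the cutoff, which matches a signal of 49.4. A member can pass this filter because it is bright in 1 group only, so these 12 do not stand for all members. None of the 12 was called at a limma adjusted p under 0.05, where 0.00888% of all tested probe sets were called. An unadjusted p under 0.05 was found for 1 of the 12, Ank, and the share over all tested probe sets was not counted. With the pair as a block in the same fit, 0.0355% of probe sets were called and 1 of them was a member, Ank. As this contrast chose Ank, nothing is read from either. The remaining 11 had a lowest adjusted p of 0.9996 without the block and 0.729 with it. One of the 12 probe sets, again that of Ank, was at least 2-fold lower in both pairs, against 0.382% of all tested probe sets. Both AID-silenced clones lay below both controls at 2 of the 12, Ank and the brightest of Slc20a1, against 14% of all probe sets, and above both at 0 of 12, against 15.5%. Of the 11 probe sets other than that of Ank, 4 went one way in both pairs and 7 went opposite ways. The median difference over the 12 was −0.10, and −0.04 over the 11 other than Ank, beside 0.01 over all tested probe sets.

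**Figure D2:**
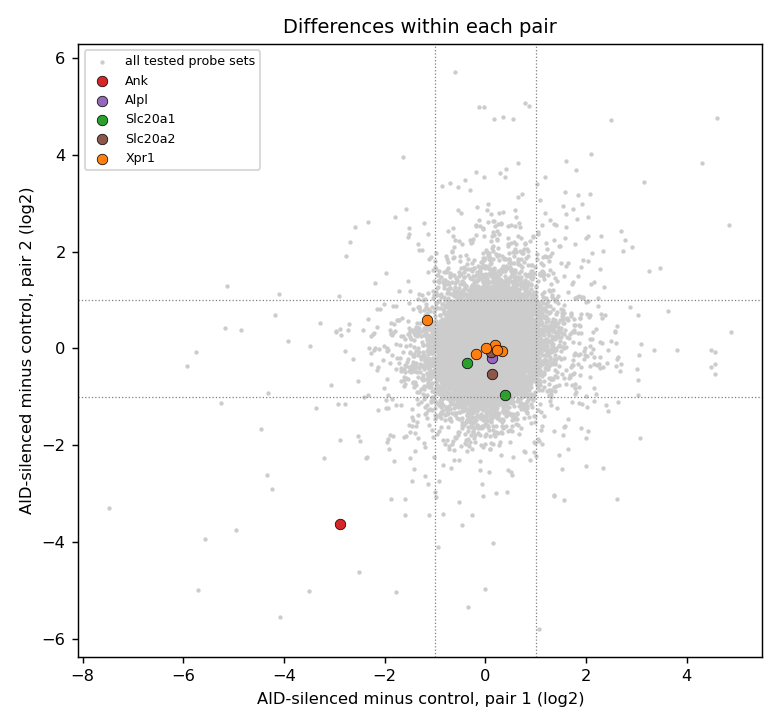
Each point is a tested probe set, with the log2 difference between the AID-silenced and the control clone of pair 1 on the horizontal axis and of pair 2 on the vertical axis, and dotted lines at 2-fold. Ank lies at −2.88 and −3.62, apart from the other 11 member probe sets, of which none is 2-fold lower or higher in both pairs.

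A comparison that played no part in choosing the members was that of pair 2 with pair 1, with the vector as a term of the fit. What the clones of a pair share is not stated in the labels beyond the pairing itself. Xpr1 was lower in pair 2. At 5 of its 6 tested probe sets both pair 2 clones lay below both pair 1 clones, 1.37- to 1.78-fold lower by the fit. The log2 differences at the brightest were −0.60 between the control clones and −0.99 between the AID-silenced clones, with a fitted value of −0.79 ± 0.21 (SE, limma unadjusted p = 0.00703, adjusted p = 0.181). At the fourth they were −0.71 and −0.96, with a fitted value of −0.84 ± 0.24 (SE, limma adjusted p = 0.195). At the fifth they were −0.82 and −0.81 (−0.82 ± 0.26, SE, limma adjusted p = 0.226). These probe sets are not independent, since 3 of the 6 were designed from the same accession. None passed after adjustment.

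Slc20a2 was also lower in pair 2 at its first probe set (−0.61 ± 0.25, SE, limma adjusted p = 0.304) but level at its second (0.00 ± 0.23). Alpl was lower by −0.30 ± 0.16 (SE, limma adjusted p = 0.410), and the brightest probe set of Slc20a1 by −0.06 ± 0.17 (SE). No member of 12 was called in this comparison, where 0.0178% of tested probe sets were called. An unadjusted p under 0.05 was reached by 4 of the 12, 3 of Xpr1 and 1 of Slc20a2, against 15.8% of all tested probe sets. Both pair 2 clones were below both pair 1 clones at 7 of 12, against 26.2%. Of these 7, 5 were of Xpr1, 1 was of Slc20a2 and 1 of Alpl. Pair 2 was at least 1.5-fold lower in both groups at 3 of 12, all of Xpr1, against 5.66%. Probe sets of 1 gene are not independent, so these are not counts of genes. The 10 tested genes that neighbour Xpr1 on chromosome 1 had a median pair difference of −0.07, and 40% of them were lower in pair 2 in both groups, against 38.5% of all tested genes. For the 13 tested neighbours of Slc20a2 on chromosome 8 the median was −0.22, and 8 of them, or 61.5%, were lower in both groups. The 14 tested neighbours of Alpl on chromosome 4 had a median of 0.07.

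**Figure D3:**
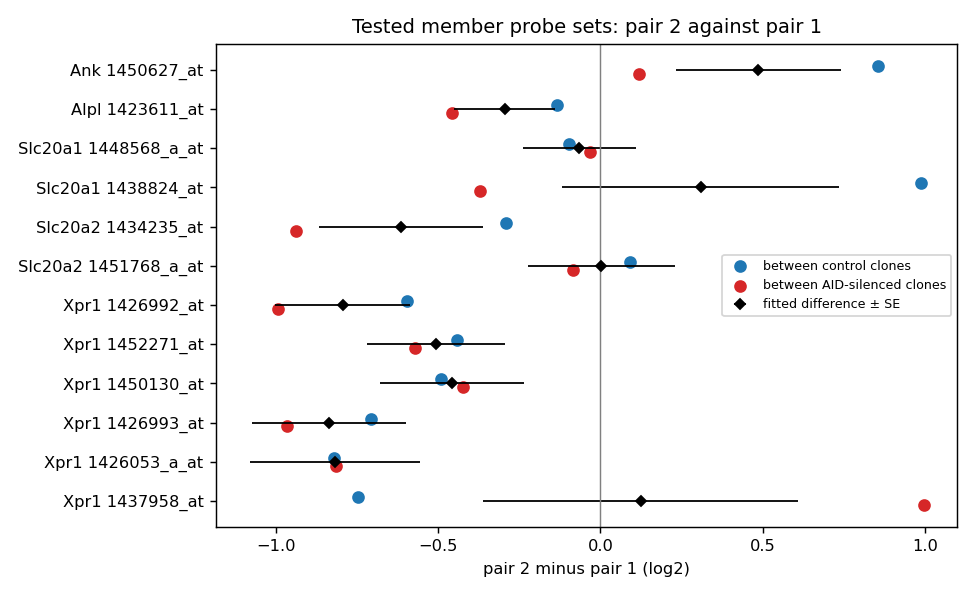
Log2 differences of pair 2 minus pair 1 for the 12 tested member probe sets, between the control clones (blue), between the AID-silenced clones (red) and as fitted with its SE (black). The 5 brightest Xpr1 rows lie below 0 in both groups, with fitted values between −0.84 and −0.46, and Ank is the row where the control clones differ by 0.85 and the AID-silenced clones by 0.12.

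In pair 2 against pair 1 Ank had a fitted log2 difference of 0.49 ± 0.25 (SE, limma adjusted p = 0.407). Its control clones differed 1.81-fold from each other, and the genes around Ank on chromosome 15 were looked at next. Of the 10 measured genes on each side in the reference gene order, 10 in all were tested. All 10 were higher in the control clone of pair 2 than in that of pair 1, with a median log2 difference of 0.62, beside −0.06 over the 10475 tested genes, of which 4665 were higher in that clone. Zfp622, a zinc finger gene, had signals of 7882 and 20853 in controls and 7946 and 7718 in silenced clones. Myo10, an unconventional myosin of filopodia, had 572.1 and 2127.9 against 644.9 and 922.5. Dap had 3506 and 8030.3 against 4397 and 3836, and Marchf6, a ubiquitin ligase of the endoplasmic reticulum, had 2108.6 and 3921.5 against 2140.2 and 1812.6. In these 4 genes the control clone of pair 2 stood above the other 3 clones. Ropn1l differed by 0.50 in pair 1 and −1.36 in pair 2.

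Of the 10 tested neighbours, 2 were lower in both AID-silenced clones than in their controls, against 27.5% of all tested genes. These 2 lie directly next to Ank, 1 on either side. Otulin, a deubiquitinase of linear ubiquitin chains, had signals of 1498.8 and 2876 in controls and 1051 and 1148.3 in silenced clones, or −0.51 in pair 1 and −1.31 in pair 2. Fbxl7, an F-box protein gene, had 353.9 and 376.5 against 179.4 and 42.7 at its brightest probe set, or −0.92 and −2.74. Of its 3 tested probe sets only this 1 was lower in both pairs. The other two were lower in pair 2 only, as at the second with 232 and 303.4 against 247 and 59.8. The fourth was not tested, and its signals of 17.9 and 2.4 against 1.5 and 1.3 lay below the bacterial controls. Neither gene passed (limma adjusted p = 0.9996 for both, and 0.470 and 0.479 with the pair as a block). The dim neighbours Cdh10, 4930445E18Rik and Cmbl were also 2-fold apart in a pair but were not tested.

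Over the 10 tested neighbours the median difference between AID-silenced and control clones was 0.02 in pair 1 and −1.15 in pair 2. The difference at Ank lay below these medians by −2.89 in pair 1 and −2.47 in pair 2. At least 2-fold differences in either pair were seen in 7 of the 10, against 10.6% of all tested genes. Set against the control clone of pair 1 alone, the AID-silenced clones were lower at Ank by −2.82.

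**Figure D4:**
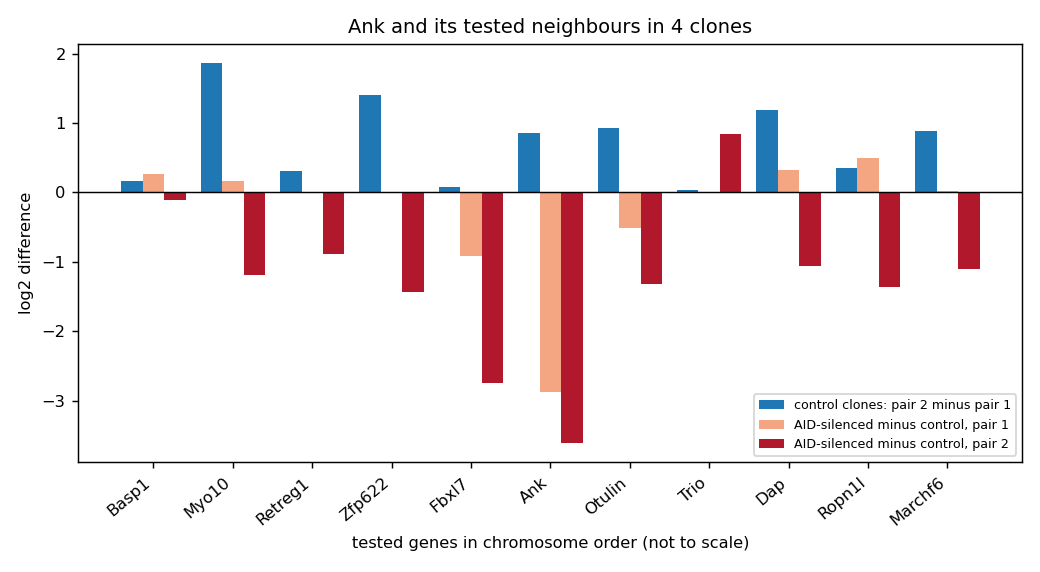
Log2 differences for Ank and its 10 tested neighbours in chromosome order, between the control clones (blue) and between the AID-silenced and control clone of pair 1 (light orange) and pair 2 (dark red). The pair 2 bars are negative in 9 of the 10 neighbours with a median of −1.15, the pair 1 bars have a median of 0.02, and the bars of Ank reach −2.88 and −3.62.

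The shift between the control clones reached well beyond these neighbours. The 422 tested genes of chromosome 15 were put in order and split into blocks of 20, a step chosen after the values of the neighbours were seen. In the first 3 blocks, the second of which holds Ank, the control clone of pair 2 was higher with medians of 0.96, 0.71 and 1.08, and 24 of 60 genes were at least 2-fold higher, or 40%, against 3.44% of all tested genes. In the next 2 blocks, which end at Myc, it was lower with medians of −0.52 and −1.03, and 14 of 40 genes were at least 2-fold lower, against 6.84% of all tested genes. Another 4 of these 40, Baalc, Fzd6, Slc25a32 and Dcaf13, were at least 2-fold higher, by 1.35 to 2.00, and lie in a row near the start of the fourth block, so the higher stretch runs into that block. The 16 full blocks after these had medians between −0.26 and 0.09. Between the AID-silenced clones the first 5 blocks had medians from −0.16 to 0.07. The high signal of Ank in the control clone of pair 2 thus lay in a stretch of chromosome where most genes were higher in that clone. DNA copy number was not measured, and its part in these values was not tested.

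**Figure D5:**
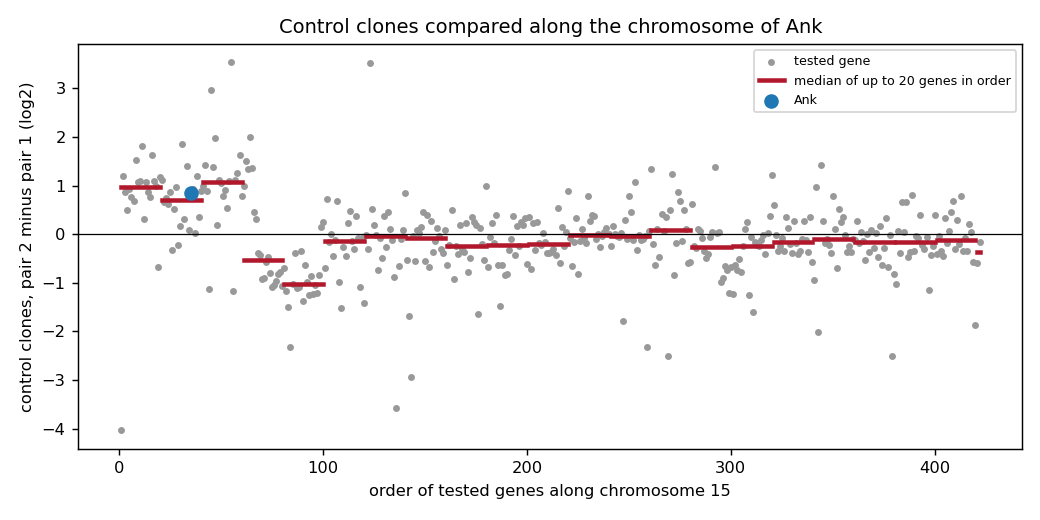
Log2 difference between the control clones, pair 2 minus pair 1, for the 422 tested genes of chromosome 15 in order, with red lines at the medians of consecutive blocks of 20 and Ank in blue. The first 3 medians lie between 0.71 and 1.08, the next 2 at −0.52 and −1.03 and the later full blocks between −0.26 and 0.09, with Ank at 0.85.

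The genes whose pattern over the 4 arrays was nearest to that of Ank were named by the distance between centred log2 values, among 10474 tested genes. Klhl5, a kelch-like protein gene, was nearest, at a distance of 1.05, with signals of 190.4 and 759 in controls and 52.3 and 55.7 in silenced clones. Like Ank it was higher in the control clone of pair 2 than in that of pair 1. Dctd, which turns dCMP into dUMP, followed at 1.17 with 598.9 and 715.7 against 16.7 and 82.1. Calhm2, a channel gene, was at 1.20 with 126.5 and 191.8 against 31.1 and 8.2, and Phf11d was at 1.21 with 69.7 and 204 against 15.2 and 17.2. Apobec1, an RNA-editing cytidine deaminase, was at 1.26 with 1691 and 1333 against 215.4 and 347.6. In all 5 the groups did not overlap, and with 4 arrays such a likeness rests mostly on the difference between the groups that also chose Ank.

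Of 71 further genes in 6 lists, 64 were measured and 36 were tested, taking the brightest probe set of each. The 36 tested genes differed by at most 0.75 on the log2 scale between the means of AID-silenced and control clones. Genes too dim to be tested went further, from −1.71 for Nt5e to 1.30 for Akp3. In the AID-silenced clones 12 were higher in both pairs, 12 lower in both and 12 opposite, with a median of 0.01, among the tested genes of these lists. Over all tested genes 26.7% were higher in both, 27.5% lower in both and 45.7% opposite, with a median of −0.005. None of the 36 was called (lowest limma adjusted p = 0.9996, and 0.653 with the pair as a block). Of the 36, 0 had an unadjusted p under 0.05, and the share over all tested genes was not counted. None differed 2-fold one way in both pairs, against 1.01% of all tested genes. That share is so small that 0 of 36 does not set these genes apart.

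Among ectonucleotidases and relatives of Enpp1, 7 were tested, with 1 higher in each silenced clone than in its control and 3 lower. Entpd3, which removes phosphates from extracellular nucleotides, had signals of 185.5 and 75.1 in controls and 98.4 and 40.8 in silenced clones, a log2 difference of −0.75 ± 0.53 (SE, n = 2 per group). Enpp4 was at −0.23, Entpd6 at −0.15 and Entpd7 at 0.31.

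Of 7 other phosphate carriers, 5 were higher than their control in both pairs and 1 was lower, with a median of 0.28. Slc34a2, a sodium-phosphate cotransporter of epithelia, had signals of 81.5 and 77.1 against 149.4 and 135.3 (0.73 ± 0.32, SE, n = 2 per group). Its groups did not overlap, nor did those of Slc37a1, Slc37a2 and Slc37a3. Of all tested probe sets, 15.5% had both silenced clones above both controls and 14% had both below. Slc37a1 was at 0.40 and Slc37a4, which brings glucose 6-phosphate into the endoplasmic reticulum, at 0.33, while Slc37a2 was at −0.70. Slc25a3, the mitochondrial phosphate carrier, was level at 0.04, with 19389 and 20459 against 19423 and 21681.

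Of 5 phosphatases and pyrophosphatases, 1 was higher in both and 3 were lower. Ppa1, the cytosolic enzyme that splits pyrophosphate made by biosynthesis, had 7112 and 10557 against 5624 and 9348 (−0.26 ± 0.31, SE, n = 2 per group). Its clones sorted by pair. Prune1 was at −0.21, Ppa2, the mitochondrial pyrophosphatase, at 0.12 and Phospho2 at −0.07. Lhpp was the single tested gene of the 36 that differed 2-fold in a pair, by −0.91 in pair 1 and 1.36 in pair 2.

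Inositol pyrophosphates are the signal that XPR1 senses, and 9 of their enzymes were tested, with 3 higher in both pairs, 3 lower and 3 opposite. Ipmk, an inositol polyphosphate kinase, had 925.5 and 740.1 against 603.8 and 557.5 (−0.50 ± 0.26, SE, n = 2 per group). Its groups did not overlap, nor did those of Ppip5k2, Ip6k1, Ip6k2 and Nudt4. Outside this list and the phosphate carriers, the same held for the tested genes Entpd7, Ppa2, Abcc8 and Casr. The shares over all tested probe sets were 14% with both silenced clones below both controls and 15.5% with both above. Ppip5k2, a kinase that makes inositol pyrophosphates, was at −0.32. Ip6k2, another such kinase, was at 0.38 and Nudt4, which breaks them down, at 0.40.

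Of 6 channels and ABCC transporters tested, 2 were higher in both and 1 was lower. Abcc5, a nucleotide exporter, was at 0.38, Abcc8 at 0.56 and Abcc4, which exports cyclic nucleotides, at −0.35. Panx1, a channel for ATP release, was opposite in the pairs, at −0.41 and 0.57. Only 2 of 15 genes of mineralisation and phosphate hormones were tested, Casr at −0.47 and Sp7 at −0.05, and 12 of the 15 were measured.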

How the data were processed

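RNA of 4 J558 clones was measured on 1 array each. The authors deposited linear intensity values; the submitters' processing notes name MAS5, with no version in the sources used here. The 2% trimmed mean was 500 on every array, so nothing was rescaled. Of 45101 probe sets, 64 controls were left out. The upper 0.5 by mean log2(signal + 16), 22519 probe sets, entered limma 3.58.1 (lmFit, eBayes with trend and robust settings, statmod 1.5.0, R 4.3.3), with Benjamini-Hochberg adjustment over all of them. This step was checked on simulated data, with 50 probe sets shifted at each of log2 1, 2, 3 and 4. Between AID-silenced and control clones it called 1, 41, 47 and 50 of them, with 5 false calls. For pair 2 against pair 1 it called 6, 37, 49 and 50, with 10 false calls. A 2-fold difference would thus mostly go uncalled. The simulated noise was independent between arrays, so likeness of clones within a pair was not simulated. Its spread was that left after the vector and the pair were both fitted. The fit of AID-silenced against control clones held no pair term, so its counts can overstate recovery in the real data. The platform annotation gave 34945 probe sets 1 symbol. The 932 with several and the 9160 not listed stayed unnamed. A gene other than a member stands for its brightest probe set. Names and gene order came from a RefSeq table (GRCm38.p6, 34741 probe sets matched). Figures used matplotlib 3.10.9.

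The members, lists and tests were chosen with earlier results of these data known. By rule, the text names all member probe sets, up to 4 tested genes per list with the largest difference of 1 sign in both pairs, neighbours of Ank 2-fold apart in a pair, and the 5 genes nearest to Ank. Slc25a3, Lhpp, Panx1, Sp7, Nt5e, Akp3 and the 4 genes of the fourth chromosome 15 block were picked once their values were known. The labels number clones as pairs. Pair differences of the control and of the AID-silenced clones correlated across probe sets (r = 0.306, rho = 0.336), which are not independent replicates. Alternatives were other normalisations, pseudocounts, filters, moderation and fold thresholds, a pair block and leaving out each clone. The number of arrays limits the precision. The level of the silenced gene is not reported here.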

Additional observations from a re-analysis of the deposited data

Results flagged for a closer look

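At 3 dim member probe sets the AID-silenced clone differed from its control in opposite directions in the pairs, at least 2-fold in 1 of them. With 1 clone of each group per pair, the difference between pairs was not tested. The sixth Xpr1 probe set differed by −1.17 in pair 1 and 0.58 in pair 2. The seventh differed by −1.90 and 0.10. The dimmest Slc20a1 probe set differed by 1.04 and −0.70. The brighter probe sets of both genes differed by less than 2-fold in each pair.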

How the results depend on the processing

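Of 12 tested member probe sets, 0 were called between AID-silenced and control clones. With the pair as a replicate block 1 was called, and with a clone left out 0 to 1, the 1 being Ank, which this contrast had chosen (without the control clone of pair 1 or of pair 2). Over all 22519 probe sets the calls then went from 2 to 146 without the control clone of pair 1 and to 52 without that of pair 2. Leaving out the silenced clone of pair 1 gave 0 calls and that of pair 2 gave 2. A lone clone was then assumed to vary like the other group. The block changed no other call among the 12 member probe sets, and over all 22519 it gave 8 calls. The difference of Ank ran from −3.67 to −2.82 over 12 alternatives. It was 1 member that was at least 2-fold lower in both pairs under all 8 alternatives run for that count, and leaving out a clone was not run there because it removes a pair. In pair 2 against pair 1, 0 members were called under all 12 alternatives, of which the pair as the only term and leaving out each clone in a fit with that term were added after the data were seen. The fifth Xpr1 probe set, at 0.01, turned to −0.039 under quantile normalisation and −0.0034 under median scaling.

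With each clone left out in turn, small differences between AID-silenced and control clones changed sign. They ran from −0.26 to 0.19 for Alpl, from −0.78 to 0.21 for the second Slc20a1 probe set, and from −0.67 to 0.27 and −0.025 to 0.065 for Slc20a2. Those of Xpr1, from the brightest to the sixth, ran from −0.36 to 0.63, −0.16 to 0.41, −0.40 to 0.088, −0.39 to 0.58, −0.40 to 0.43 and −0.79 to 0.20. Differences of pair 2 from pair 1 ran from −0.24 to 0.11 and −0.17 to 0.79 for the first and second probe sets of Slc20a1, −0.050 to 0.057 for the second of Slc20a2, −0.46 to 0.71 for the sixth of Xpr1 and −1.32 to 2.29 for Ank. With a clone left out, all these fits of pair 2 against pair 1 hold no term for the vector, so the difference between groups enters each of them. The causes of the changes between AID-silenced and control clones were not tested. Signals near those of the bacterial controls limit Abcc6 and the dimmest probe sets of Slc20a1 and Xpr1.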

Other observations

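Among the genes of pyrophosphate and nucleotide handling that were too dim to be tested, Nt5e, the ectoenzyme that turns AMP into adenosine, had signals of 71.1 and 74.3 in controls and 5.3 and 18.7 in silenced clones, or −2.03 in pair 1 and −1.38 in pair 2. Its AID-silenced signals lay below the highest bacterial control signals of those arrays, 27.3 and 27.2. Akp3, an intestinal alkaline phosphatase, had 7.8 and 4.2 in controls and 31 and 45.8 in silenced clones, or 0.98 and 1.61. Its control signals lay below the bacterial controls of those arrays, 41.9 and 27.5. Both genes were named after their values were seen.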
